A study of Homo sapiens with 6 samples.

Results

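Genes of the FET and ETS families were followed in A673 cells with and without the propeptide of lysyl oxidase. Among them were EWSR1 and FLI1, which Ewing sarcoma translocations usually join. The members were EWSR1 and TAF15 of the FET family, and FLI1, ERG, ETV1, ETV4, ETV5, ETS1 and ETS2 of the ETS family. Every gene probe whose transcript accession belongs to one of these genes was taken, and each probe was kept separately. This gave 14 probes of 9 genes among the 50599 gene probes of the array, of which 28174 could be named as 20503 genes. No probe was chosen by its signal.

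FET proteins are RNA-binding proteins with a transcriptionally active N-terminal region, and ETS proteins are transcription factors that bind DNA at a GGAA core. In Ewing sarcoma a translocation usually joins EWSR1 on chromosome 22 to FLI1 on chromosome 11. The product, EWS/FLI1, carries the N-terminal part of EWS and the DNA-binding domain of FLI1, and in rarer tumours ERG, ETV1, ETV4 or FEV replaces FLI1. A673 is an established Ewing sarcoma cell line that carries EWS/FLI1.

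RNA was hybridised to 6 Agilent one-colour arrays, from 3 separate experiments in each group. The control group was A673/TR/empty and the other was A673/TR/LOX-PP. Both lines are A673 cells that express the tetracycline repressor (TR), infected with a doxycycline-inducible lentiviral vector, which is empty in the controls and carries the cDNA of the propeptide (LOX-PP) in the others. LOX-PP is the part of lysyl oxidase (LOX) that is cut off when the enzyme matures. The A673/TR/LOX-PP cells received doxycycline for 72 h, at 1 µM by the labels. The methods of the study's other cultures give the dose by weight per volume, so the dose on these arrays is not settled. The same treatment text stands on all 6 samples, so whether the control cells also received doxycycline is not settled. The 2 lines were made separately, as clones or populations selected after infection, and which clone was hybridised is not given in the sources used here, so a difference between lines and an effect of LOX-PP cannot be told apart. In bulk RNA, fewer cells of a type and less RNA per cell cannot be told apart either.

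The signal of each array was read as log2 over its 75th percentile, and values are listed in the order of replicates 1 to 3, with A673/TR/empty as the controls. limma was run on the 32647 probes that were well above background in 3 or more of the 6 arrays, and a probe was called at a Benjamini-Hochberg adjusted p under 0.05. Over all tested probes the median difference was 0.13 log2, and every difference (A673/TR/LOX-PP minus A673/TR/empty) and its unadjusted 95% interval are given relative to this median, whereas p refers to the difference before this step. Under quantile normalization the median was -0.034. Each array held 58717 gene spots, 0 of them saturated, and 56.9% to 74.8% were well above background. Replicate 1 of A673/TR/LOX-PP was alone on slide 2, and the other 5 arrays shared slide 1. The single LOX probe gave -0.09, 0.36 and 0.11 in the controls and -0.12, -0.68 and -1.29 with LOX-PP. All 3 LOX-PP arrays lay below the lowest control. The relative difference was -0.95 (95% interval -1.74 to -0.16), with an adjusted p of 0.217 in limma. The probe thus showed no higher signal in the cells meant to express the propeptide. In other cultures of this line, the study detected the induced mRNA by RT-PCR and the secreted propeptide by immunoprecipitation. Whether this probe lies within the propeptide cDNA is not given in the sources used here, and every direction below rests on the labels.

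The labelled cell type was checked against marker genes. All 8 probes of the 6 Ewing sarcoma markers (CD99, NKX2-2, NR0B1, STEAP1, LIPI and PRKCB) were well above background on every array, and their summed level was 7.45 to 7.60 in the controls and 7.64 to 7.94 with LOX-PP (log2 over the 75th percentile). Among endothelial markers, 3 of 7 probes were well above background on every array, with a summed level of -1.63 to -1.16 and -1.20 to -0.42, and TEK was not well above background on any. Of the haematopoietic marker probes 3 of 7 were well above background on every array and 2 on none, with summed levels of -1.87 to -0.97 and -1.90 to -0.43. Of the epithelial marker probes 1 of 3 was well above background on every array, and CDH1 and KRT5 were not on any, with summed levels of -3.70 to -3.15 and -3.47 to -2.26. limma called 0 of the 18 tested marker probes, with 4 at an unadjusted p under 0.05, against 5.66% and 21.3% of all tested probes. The methods' t-test called 0 and gave 3 at the unadjusted level.

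No probe of a member gene passed the test in either direction. Of the 14 probes, 12 probes of 7 genes passed the filter, and all 12 were well above background on all 6 arrays. limma called 0 of the 12, against 5.66% of all tested probes (1849 of 32647). At an unadjusted p under 0.05 there was 1 of the 12, an ETV1 probe, against 21.3% of all tested probes. The methods' t-test called 0 after adjustment and gave 2 at the unadjusted level, 1 probe each of ETV1 and ETV5. This ETV1 probe was A_33_P3357949, whereas the one in limma was A_32_P78491. The relative differences ran from -1.07 to 0.39 with a median of -0.29, 4 above 0 and 8 below, and the adjusted p from 0.217 to 0.872. The 3 arrays per group limit the precision, since the 95% intervals reached between 0.49 and 1.01 log2 to either side. Estimates beyond their own half-interval also missed the adjusted threshold, as for ETV4, 2 ETV1 probes and 1 EWSR1 probe. Their intervals are relative to the median and p is not, and of these probes only 1, of ETV1, had an unadjusted p under 0.05. A miss does not show that a gene did not differ.

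**Figure D1:**
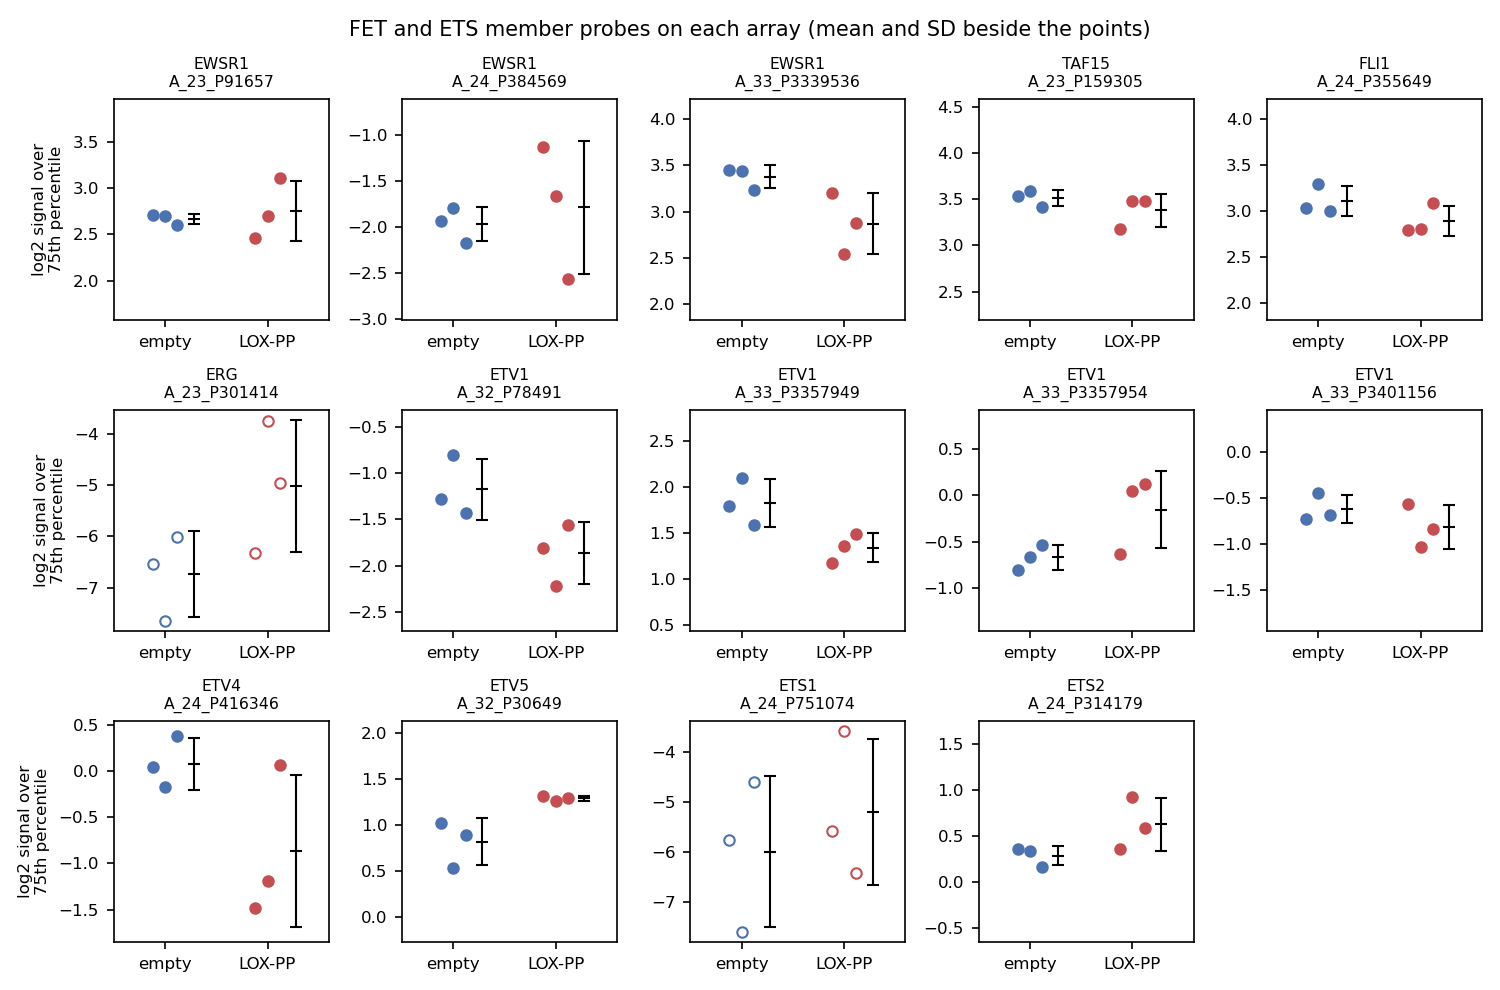
Log2 signal over the 75th percentile of the array (vertical axis, own range in each panel) of the 14 member probes on the 3 A673/TR/empty and 3 A673/TR/LOX-PP arrays. Points are arrays, filled where all 3 arrays of the group were well above background and open where they were not, with the mean and SD beside them; ERG and ETS1 are the 2 genes with open points.

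EWSR1 encodes EWS, an RNA-binding protein that gives the fusion its N-terminal part. It had 3 probes, all measured on every array. The brightest, A_33_P3339536, gave 3.45, 3.44 and 3.23 in the controls and 3.20, 2.54 and 2.87 with LOX-PP. All 3 LOX-PP arrays lay below the lowest control array, although replicate 1 was only just below it. The relative difference was -0.63 (SE 0.24, 95% interval -1.21 to -0.054), with an adjusted p of 0.287 in limma. Under quantile normalization it was -0.37. The second probe, A_23_P91657, gave 2.71, 2.70 and 2.61 in the controls and 2.46, 2.70 and 3.11 with LOX-PP. The LOX-PP arrays lay on both sides of the controls, and their SD was 0.33 against 0.056 in the controls. Its relative difference was -0.040 (SE 0.24, 95% interval -0.61 to 0.52, adjusted p 0.872). The remaining probe, A_24_P384569, gave -1.94, -1.80 and -2.17 in the controls and -1.13, -1.67 and -2.56 with LOX-PP. The LOX-PP arrays again spread to either side of the controls, with a relative difference of 0.056 (SE 0.38, 95% interval -0.84 to 0.95, adjusted p 0.824).

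The 3 EWSR1 probes did not move together over the arrays. Across the 6 arrays the correlation between A_23_P91657 and A_24_P384569 was -0.83, that between A_23_P91657 and A_33_P3339536 was -0.34, and that between A_24_P384569 and A_33_P3339536 was 0.090. These are descriptions over 6 arrays, and the probes of a pair were read on the same arrays. The signal of A_23_P91657 less that of A_33_P3339536 was -0.70 ± 0.069 (SD, n = 3) in the controls and -0.11 ± 0.54 (SD, n = 3) with LOX-PP, and the groups overlapped. The sequences and transcript positions of the probes are not given in the sources used here. Native EWSR1 mRNA and the fusion mRNA share the 5′ part of EWSR1, so a probe there would read both, and these cannot be told apart in these values. By RT-PCR in other cultures, the study reported that doxycycline did not alter the fusion mRNA. That comparison was made within each line, and not between the lines as here. The RefSeq table (GRCh38.p14) holds 1 start site of EWSR1. The 250 bases before it are shown because the gene's promoter also drives the fusion gene, and capitals mark the ETS core GGAA on either strand (TTCC is the same core on the other strand).
EWSR1 chr22:29268018-29268267 (+): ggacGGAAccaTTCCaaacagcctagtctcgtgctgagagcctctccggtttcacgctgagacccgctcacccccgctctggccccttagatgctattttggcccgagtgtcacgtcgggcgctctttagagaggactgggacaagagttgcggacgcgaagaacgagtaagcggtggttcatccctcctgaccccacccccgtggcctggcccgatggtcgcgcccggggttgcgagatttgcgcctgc
This window held 2 GGAA cores, and 76.5% of all 35116 promoter windows of this length held at least as many. The core is common, since 92.7% of the windows held it at least once, with a median of 3.

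TAF15, the FET relative on chromosome 17, had a single bright probe with 3.53, 3.59 and 3.42 in the controls and 3.17, 3.48 and 3.48 with LOX-PP. Only replicate 1 of A673/TR/LOX-PP was set below the others, and the groups overlapped. The relative difference was -0.26 (SE 0.21, 95% interval -0.75 to 0.23, adjusted p 0.756), and it turned to 0.028 under quantile normalization.

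FLI1 encodes the ETS factor whose DNA-binding domain the fusion carries, and native FLI1 acts in blood and endothelial development. Its single probe, A_24_P355649, gave 3.03, 3.30 and 3.00 in the controls and 2.80, 2.80 and 3.08 with LOX-PP. Replicates 1 and 2 of A673/TR/LOX-PP were below every control array, whereas replicate 3 lay within the controls. The group means were 3.11 ± 0.17 (SD, n = 3) and 2.89 ± 0.16 (SD, n = 3), a relative difference of -0.34 (SE 0.21, 95% interval -0.85 to 0.17) with an adjusted p of 0.619 in limma. As a ratio of LOX-PP to control, the interval ran from 0.555 to 1.12. The relative difference of FLI1 was -0.090 under quantile normalization and from -0.46 to -0.18 when 1 array was left out. The fusion keeps the 3′ part of FLI1, and a probe there would read the fusion mRNA together with any native FLI1 mRNA. On which side of the break point the probe lies is not given in the sources used here.

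By the rule for likeness, the 3 named genes nearest to FLI1 by Pearson r over the 6 arrays were HPS4 (r = 0.996), VRK1 (r = 0.989) and USP39 (r = 0.989), among 22213 named tested probes, 221 of which had r over 0.9. The 3 nearest to the bright EWSR1 probe were RPP30 (r = 0.999), ITPR2 (r = 0.996) and SEL1L (r = 0.995), among 22211 probes, 290 of them with r over 0.9. With 6 arrays and this many probes high values are frequent, and these names are a description only. Between members, the FLI1 probe followed the ETV1 probes A_32_P78491 (r = 0.92) and A_33_P3357949 (r = 0.91) and ran against ETV5 (r = -0.80), and its r with the bright EWSR1 probe was 0.55.

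ERG, the ETS gene most similar to FLI1, was not well above background on any of the 6 arrays. Its probe gave -6.53, -7.66 and -6.02 in the controls and -6.33, -3.76 and -4.96 with LOX-PP. The highest value was on replicate 2 of A673/TR/LOX-PP, the array whose negative control spots had the highest net signal (575, against 64.4 to 408 on the other arrays), and the part of the background in these values was not tested. ERG was left untested, and no fold is given.

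**Figure D2:**
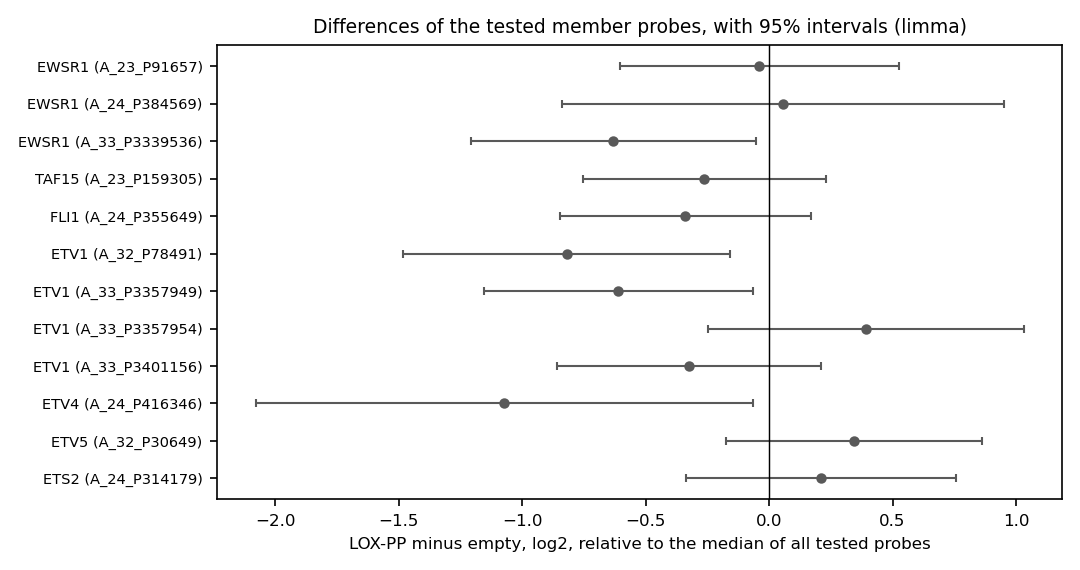
Relative difference (A673/TR/LOX-PP minus A673/TR/empty, log2) of the 12 tested member probes with its 95% interval from limma, where 0 is the median of all tested probes. The estimates run from -1.07 for ETV4 to 0.39 for an ETV1 probe, and 0 of the 12 passed an adjusted p under 0.05.

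ETV1, ETV4 and ETV5 form the PEA3 group of ETS activators, which act downstream of receptor tyrosine kinases and ERK signalling in development and in several tumours. ETV1 on chromosome 7 had 4 probes, and they went different ways. Probe A_32_P78491 gave -1.28, -0.80 and -1.43 in the controls and -1.81, -2.23 and -1.56 with LOX-PP, all 3 below the lowest control. The relative difference was -0.82 (SE 0.28, 95% interval -1.48 to -0.16), with an unadjusted p of 0.0427 and an adjusted p of 0.217 in limma. Probe A_33_P3357949 gave 1.79, 2.10 and 1.59 in the controls and 1.17, 1.36 and 1.49 with LOX-PP, again without overlap. Its relative difference was -0.61 (SE 0.23, 95% interval -1.16 to -0.065, adjusted p 0.281).

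The other two ETV1 probes did not follow. Probe A_33_P3357954 gave -0.81, -0.67 and -0.53 in the controls and -0.63, 0.05 and 0.13 with LOX-PP, where replicates 2 and 3 were above every control and replicate 1 was among them. Its relative difference was 0.39 (SE 0.27, 95% interval -0.25 to 1.03, adjusted p 0.322). Probe A_33_P3401156 gave -0.72, -0.44 and -0.69 in the controls and -0.57, -1.04 and -0.84 with LOX-PP, and the groups overlapped. Its relative difference was -0.32 (SE 0.23, 95% interval -0.86 to 0.21, adjusted p 0.664).

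Within each array, the signal of A_32_P78491 less that of A_33_P3357954 was -0.50 ± 0.38 (SD, n = 3) in the controls and -1.71 ± 0.55 (SD, n = 3) with LOX-PP, a change of -1.21 without overlap. That of A_33_P3357949 less A_33_P3357954 was 2.50 ± 0.33 and 1.49 ± 0.27 (SD, n = 3 each), also without overlap. In the other pairs of ETV1 probes the groups overlapped. These within-array contrasts were looked at because several probes exist, and they carry no test. Over the 6 arrays the correlations between ETV1 probes ran from -0.77 to 0.88. ETV1 has several transcripts, and which of them each probe reads is not given in the sources used here.

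**Figure D3:**
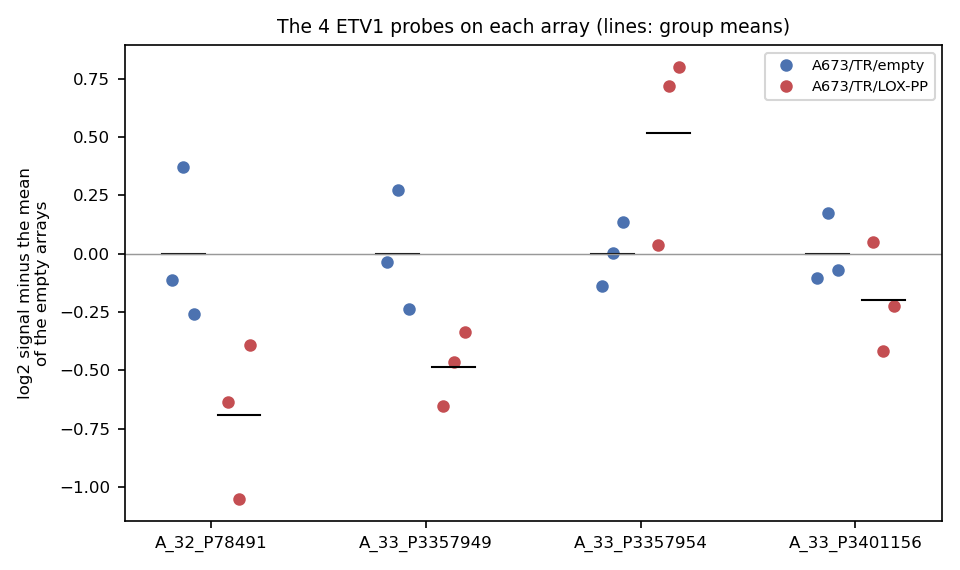
Signal of the 4 ETV1 probes on each array, as log2 minus the mean of that probe on the A673/TR/empty arrays (vertical axis), with 3 arrays per group as points and group means as lines. Probes A_32_P78491 and A_33_P3357949 lie lower with LOX-PP without overlap, A_33_P3357954 lies higher with overlap, and A_33_P3401156 overlaps; 0 of the 4 were called.

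The RefSeq table lists 6 ETV1 start windows, and 2 are shown because the probes diverged. The first holds the tandem core GGAAGGAA, and the second lies nearer the gene body. Capitals mark GGAA on either strand.
ETV1 chr7:13990703-13990952 (-): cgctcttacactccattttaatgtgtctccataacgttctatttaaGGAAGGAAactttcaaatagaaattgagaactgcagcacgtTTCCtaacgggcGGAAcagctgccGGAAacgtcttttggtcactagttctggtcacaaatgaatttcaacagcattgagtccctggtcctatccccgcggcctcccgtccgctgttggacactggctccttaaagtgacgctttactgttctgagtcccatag
ETV1 chr7:13989667-13989916 (-): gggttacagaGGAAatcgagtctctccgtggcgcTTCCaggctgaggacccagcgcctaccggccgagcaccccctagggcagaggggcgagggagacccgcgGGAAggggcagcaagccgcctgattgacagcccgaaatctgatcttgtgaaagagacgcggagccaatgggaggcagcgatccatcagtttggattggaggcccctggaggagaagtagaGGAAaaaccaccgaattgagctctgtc
The 6 windows held 3 to 5 GGAA cores each. The tandem GGAAGGAA stood in 2 overlapping ETV1 windows and in 3.06% of all windows, on either strand. The longer ETS motif CCGGAAGT, which contains the core and stands in 3.42% of all windows, was in none of the 14 windows of member genes and FEV. A match in these letters is a description of the sequence and shows no binding.

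ETV4, on chromosome 17, had the largest relative difference among the 12 tested member probes. It gave 0.04, -0.18 and 0.38 in the controls and -1.48, -1.19 and 0.07 with LOX-PP. Replicates 1 and 2 of A673/TR/LOX-PP lay below all controls, and replicate 3 was within them, so that the SD of the LOX-PP arrays was 0.82 against 0.28. The relative difference was -1.07 (SE 0.42, 95% interval -2.08 to -0.067) with an adjusted p of 0.258 in limma. Without replicate 3 of A673/TR/LOX-PP it was -1.54 with an adjusted p of 0.0582, the lowest of any member probe under any of the 15 alternatives, and without replicate 1 it was -0.80.

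ETV5, on chromosome 3, stood the other way. It gave 1.02, 0.54 and 0.89 in the controls and 1.32, 1.25 and 1.29 with LOX-PP, all 3 above the highest control and close together (SD 0.030). The relative difference was 0.34 (SE 0.22, 95% interval -0.18 to 0.86, adjusted p 0.273). Groups without overlap were found for 4 of the 12 tested member probes, ETV5 higher and 1 EWSR1 and 2 ETV1 probes lower, against 29.5% of all tested probes (16.1% higher and 13.4% lower). In the PEA3 group the estimates were thus below 0 for ETV4 and 3 of 4 ETV1 probes and above 0 for ETV5, with 0 calls among them.

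ETS1 and ETS2 are the founding members of the family and respond to RAS and ERK signalling by phosphorylation. ETS1, next to FLI1 on chromosome 11, was hardly measured. Its probe gave -5.77, -7.62 and -4.61 in the controls and -5.59, -3.58 and -6.43 with LOX-PP, and was well above background only on replicate 1 of each group, so it was not tested. ETS2, on chromosome 21 with ERG, gave 0.36, 0.34 and 0.17 in the controls and 0.36, 0.93 and 0.59 with LOX-PP. LOX-PP replicate 1 was level with the highest control and the others lay above it, and the relative difference was 0.21 (SE 0.23, 95% interval -0.34 to 0.76, adjusted p 0.452).

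The chromosomes of the members had median relative differences, over named tested probes, of -0.27 on chromosome 11 (1240 probes), -0.10 on chromosome 22 (597 probes), 0.017 on chromosome 7 (1099 probes), 0.11 on chromosome 17 (1311 probes), 0.049 on chromosome 21 (278 probes) and -0.084 on chromosome 3 (1139 probes). The FLI1 difference of -0.34 thus stood beside a chromosome 11 median of -0.27, and whether the 2 values are related was not tested.

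Other genes of the ETS family, 21 genes with 30 probes, were read for comparison. Of these, 23 probes of 15 genes were tested, and limma called 1 higher (FEV, against 3.31% of all tested probes called higher) and 2 lower (ELF4 and ELF1, against 2.36% called lower). The median relative difference was 0.053, with 13 above 0 and 10 below, and 4 probes were not well above background on any array. At an unadjusted p under 0.05 in limma there were 9 of the 23, against 21.3% of all tested probes. The groups did not overlap for 12 of the 23, 7 higher and 5 lower, against 29.5%. The list was not tested as a set.

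FEV is an ETS factor of serotonergic neurons and a rare fusion partner of EWSR1. It gave -1.42, -1.82 and -1.61 in the controls and 1.01, 1.28 and 0.82 with LOX-PP. All LOX-PP arrays were above all controls, and FEV rose by 2.53 on the log2 scale relative to the median probe (SE 0.23, 95% interval 1.98 to 3.08, 5.77-fold), with an adjusted p of 0.00218 in limma. It was called under all 15 alternatives, with relative differences of 2.35 to 2.64. FEV lies on chromosome 2, and its promoter window is shown because FEV was the ETS gene with the largest difference, again with GGAA on either strand in capitals.
FEV chr2:218985185-218985434 (-): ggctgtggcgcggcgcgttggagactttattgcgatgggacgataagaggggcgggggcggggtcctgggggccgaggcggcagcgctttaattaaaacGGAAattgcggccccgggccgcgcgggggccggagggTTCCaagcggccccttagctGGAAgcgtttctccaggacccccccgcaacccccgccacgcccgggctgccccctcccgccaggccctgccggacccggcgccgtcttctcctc
This window held 3 GGAA cores, and 55.1% of all windows held at least as many.

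ELF4, an ETS factor on chromosome X that acts in lymphoid cells, gave 3.21, 3.11 and 2.93 in the controls and 1.97, 1.99 and 1.93 with LOX-PP, and fell by 1.25 (SE 0.20, 95% interval -1.72 to -0.77, adjusted p 0.0256). Leaving out any of the control replicates or LOX-PP replicate 2 or 3 put the adjusted p between 0.0562 and 0.167. The replicate block gave 0.0887. The first ELF1 probe, A_23_P2801, gave -0.17, 0.31 and -0.47 in the controls and -2.16, -1.11 and -1.80 with LOX-PP, and fell by 1.71 (SE 0.35, 95% interval -2.53 to -0.88, adjusted p 0.0487). This call was at the threshold and was lost without any one array except LOX-PP replicate 2 (adjusted p 0.0695 to 0.199), and with the replicate block (adjusted p 0.0556), while the other ELF1 probe had a relative difference of -0.94 with an adjusted p of 0.312. ELF1 lies on chromosome 13, whose median over 387 named tested probes was -0.77, and the part of the chromosome in the ELF1 values was not tested.

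**Figure D4:**
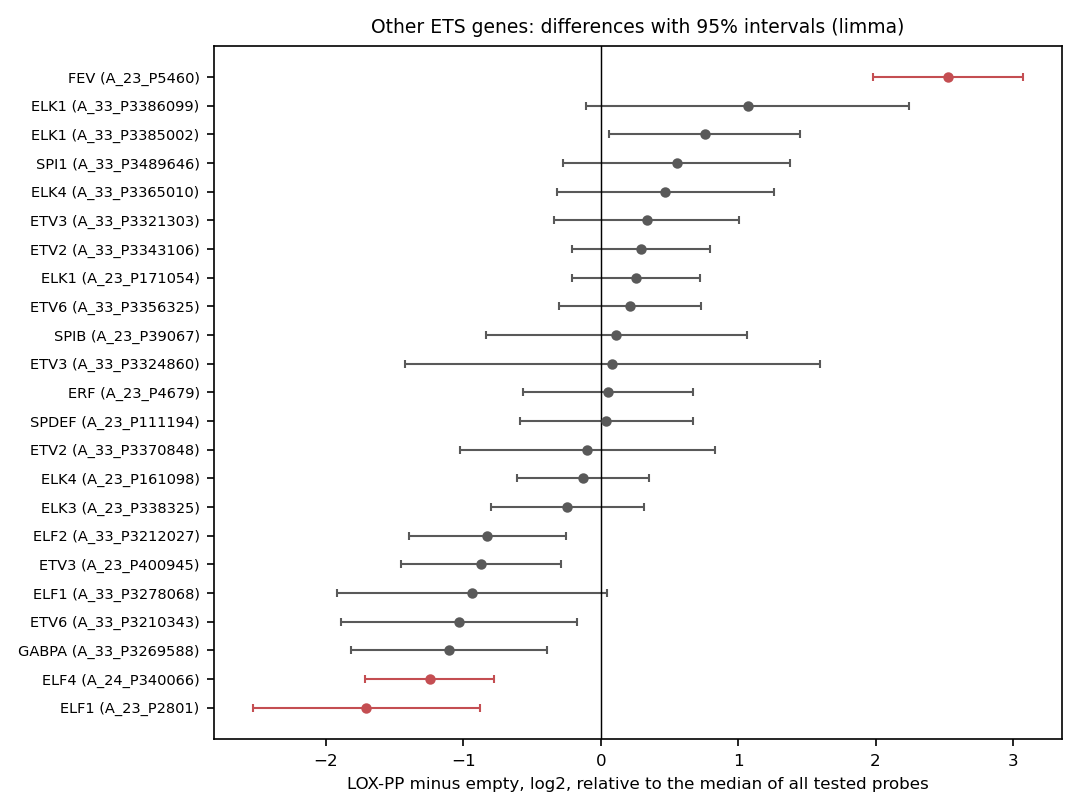
Relative difference (A673/TR/LOX-PP minus A673/TR/empty, log2) of the 23 tested probes of other ETS genes with its 95% interval from limma, where 0 is the median of all tested probes. The 3 called probes (FEV at 2.53, ELF4 at -1.25 and ELF1 at -1.71) are in red.

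**Figure D5:**
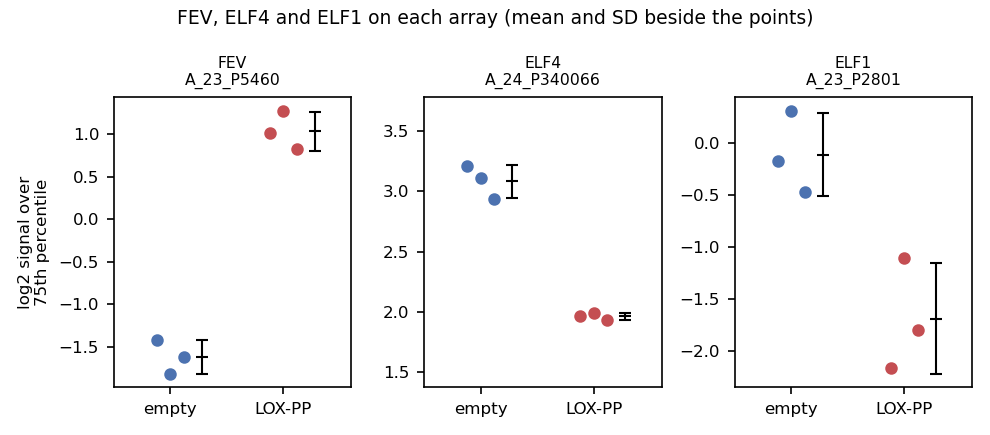
Log2 signal over the 75th percentile of the array (vertical axis, own range in each panel) of FEV, ELF4 and the called ELF1 probe on the 3 A673/TR/empty and 3 A673/TR/LOX-PP arrays, with the mean and SD beside the points. In each panel the 2 groups do not overlap.

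Genes that act on or after the members were counted from lists written by hand. The regulators of the PEA3 group, the repressor CIC with its partners ATXN1 and ATXN1L and the ubiquitin ligase proteins COP1 and DET1 that mark PEA3 proteins for degradation, had 7 tested probes. limma called 0 of the 7, with 1 at an unadjusted p under 0.05, against 5.66% and 21.3% of all tested probes, and the methods' t-test called 0, with 1 at the unadjusted level. These counts are near the background. The median was -0.50, 1 above 0 and 6 below. The ATXN1 probes went different ways, with -0.89 (adjusted p 0.0954), 0.48 (adjusted p 0.254) and -0.50 (adjusted p 0.560), and DET1 and COP1 stood at -0.56 and -0.51 (adjusted p 0.360 and 0.459). Under quantile normalization 1 ATXN1 probe was called.

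Of 18 probes of 16 genes that follow ERK signalling, 1 fell, 0 rose, and the median was -0.20 (8 above 0 and 10 below). Of all tested probes 2.36% were called lower and 3.31% higher, so a single call among 18 is near the background. An unadjusted p under 0.05 in limma was found for 3 of the 18, against 21.3% of all tested probes. SPRY1, a feedback inhibitor of receptor tyrosine kinase signalling, fell by 2.44 (SE 0.39, adjusted p 0.0211). The phosphatase gene DUSP5 had -1.30 (adjusted p 0.0623) and the feedback inhibitor SPRED1 -0.99 (adjusted p 0.213). Without control replicate 1 or 2 or LOX-PP replicate 3, the adjusted p of SPRY1 was 0.0676 to 0.109.

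Of 22 probes of 17 genes known to be activated by EWS/FLI1, 1 fell and 0 rose, against 2.36% and 3.31% of all tested probes, and the median was -0.0008 (11 above 0 and 11 below). This count is also near the background. An unadjusted p under 0.05 in limma was found for 4 of the 22, against 21.3% of all tested probes. CCK, the gene of the peptide cholecystokinin, fell by 2.67 (SE 0.34, adjusted p 0.0100), and without control replicate 1 or 2 its adjusted p was 0.0544 and 0.0569. NKX2-2, a homeobox factor of these tumours, had 0.86 (adjusted p 0.0782, and called under quantile normalization), and a BCL11B probe had 0.81 (adjusted p 0.0959).

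Of 9 probes of 8 genes known to be repressed by EWS/FLI1, 1 rose and 1 fell, against 3.31% and 2.36% of all tested probes, and the median was -0.23 (3 above 0 and 6 below). Calls this few say nothing particular about the list. At an unadjusted p under 0.05 in limma there were 5 of the 9 probes, against 21.3% of all tested probes. The groups did not overlap for 6 of the 9, 3 higher and 3 lower, against 29.5%. DKK1, described below, is in both counts, and the list was not tested as a set. The cell cycle inhibitor gene CDKN1A rose by 2.49 (SE 0.41, adjusted p 0.0164). The Wnt inhibitor gene DKK1 was well above background on 3 of 3 control arrays and 0 of 3 LOX-PP arrays. DKK1 thus passed the filter of 3 or more arrays only through the controls, the group where it was high. Its adjusted p of 0.0313 in limma is therefore no further support for a difference. Its LOX-PP signals were not well above background, so the size that follows is uncertain. By the signals as the extraction software corrected them, before the median was subtracted, its mean was 11.1-fold lower on the LOX-PP arrays. This size depended on the background correction and on 1 array, since the relative difference was -3.60, but -2.16 with normexp (adjusted p 0.0675) and -2.96 without LOX-PP replicate 1 (adjusted p 0.0355). IGFBP3, a binding protein of insulin-like growth factors, had 0.95 (adjusted p 0.0534). The adjusted p of CDKN1A was 0.0561 to 0.0936 without control replicate 1 or 2 or LOX-PP replicate 2 or 3, and that of DKK1 was 0.0736 to 0.142 without control replicate 1 or 2 or LOX-PP replicate 3.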

How the data were processed

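RNA of 6 cultures was measured on Agilent SurePrint G3 one-colour arrays. The authors deposited the spot intensity of each array, corrected for background by Agilent Feature Extraction 10.7 (per the labels), and a table of processed log2 values. The array design is on hg19.

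From the deposited intensity, spots flagged as outliers and control spots were dropped, the log2 values of each probe's spots were averaged, and each array's 75th percentile was taken off. The result was within 0.02 log2 of the authors' log2 values for 99.9% of probes once both were centred per probe. The 32647 probes that were well above background in 3 or more arrays were fitted with limma 3.58.1 in R 4.3.3 without a block, with Benjamini-Hochberg adjustment over all of them. The limma fit was also run on simulated data with independent noise for each probe. Effects shared by an array or slide were not simulated, so the error rate in these data cannot be read from it. Gene names and promoters came from RefSeq tables (28174 of 50599 probes named, 4 of 9 members with a promoter window).

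All probes of the 9 members are named. From each related list, genes with a called probe are named and, where fewer than 3 are called, those of lowest p up to 3. A gene of the related lists is not reported here. The members and lists were chosen with earlier results of these data known. Alternatives were the authors' processed values, centring on the median of detected probes, quantile normalization, no filter and a filter on all arrays, normexp (offset 50, on the median spot signal), slide and replicate blocks, the methods' t-test and leaving out each array. Correlations between arrays of a group were 0.953 to 0.994, and no pair of arrays held identical values beyond 1 probe.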

Additional observations from a re-analysis of the deposited data

How the results depend on the processing

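Under the 15 alternatives, 0 of 180 values of the 12 tested member probes passed the threshold, and 171 kept their direction. The direction turned for 3 probes. EWSR1 A_23_P91657 (-0.040) was 0.23 under quantile normalization, 0.072 with the slide block and from -0.22 to 0.072 when 1 array was left out. EWSR1 A_24_P384569 (0.056) was -0.31 with the slide block and from -0.31 to 0.44 when 1 array was left out. TAF15 (-0.26) was 0.028 under quantile normalization. The slide block equals leaving out LOX-PP replicate 1, the only array on its slide.

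Of all tested probes 1849 were called (1080 higher), and 1891 (908 higher) under quantile normalization. The count was 516 with no filter on dim probes, 860 with the replicate block, 566 with the methods' t-test (6430 before adjustment) and between 407 (without control replicate 1) and 2062 when 1 array was left out, with 444 without control replicate 2, 892 without LOX-PP replicate 2 and 1037 without LOX-PP replicate 3. With no filter on dim probes the calls were 1 for other ETS genes, 0 for ERK genes and 0 for repressed genes. With the replicate block they were 1 for other ETS genes and 1 for repressed genes. The methods' t-test called 0 of the ERK genes, 0 of the activated genes and 0 of the repressed genes. Quantile normalization called 1 regulator of the PEA3 group (ATXN1) and 2 activated genes (CCK and NKX2-2). Probes well above background on all arrays gave 2 ERK genes (SPRY1 and DUSP5), and normexp gave 1 repressed gene (CDKN1A). When 1 array was left out, calls ran from 1 to 2 for other ETS genes, from 0 to 1 for ERK genes, from 0 to 1 for activated genes and from 0 to 2 for repressed genes. The cause of these shifts was not tested.

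Whether the replicate numbers pair the samples was not settled by the values. The deviations of same-numbered arrays correlated at 0.27, -0.39 and 0.23, and those of differently numbered arrays at -0.46 to 0.39. Same-numbered arrays were thus not the most alike. With the replicate block 0 member probes were called. The precision was limited by 3 arrays per group and by the background, since ERG and ETS1 lay at or near it.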
